A study of Homo sapiens with 20 samples.

Results

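ChIP-seq was used to map where HA-tagged POU2F3 bound chromatin in NCI-H526 cells, an established human small cell lung cancer line of the POU2F3 (tuft cell-like) subtype, with DMSO or with AU-15330. The 2 libraries compared here were taken out of 20 samples, and their members are the called binding regions on chromosomes 1 to 22 and X: 56863 regions with DMSO and 14408 with AU-15330. A DMSO region counts as kept where at least 1 of its bases lay in an AU-15330 region and as lost where none did, and an AU-15330 region with no base in a DMSO region was called gained. AU-15330, given at 1 µM, is a PROTAC degrader of SMARCA2 and SMARCA4, the ATPases of the mSWI/SNF (BAF) chromatin remodelling complexes. The study reports that the subunit PBRM1 was degraded as well. The labels give no single treatment time for this library.

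Both libraries came from Cas9-expressing cells in which endogenous POU2F3 was knocked out and replaced by a lentiviral, guide-resistant POU2F3 fused to a degron and a double HA tag, and both were precipitated with an HA antibody. The regions therefore stand for the introduced protein, in 1 engineered derivative of 1 line. Each condition had 1 library, so differences between treatments have no replicate check and no test was made. All intervals below are exact 95% binomial (Clopper-Pearson) intervals and cover counting error only.

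The POU-domain factor POU2F3 specifies tuft cells, the chemosensory cells of epithelia, and defines a subtype of small cell lung cancer. POU factors recognise the octamer element, and POU2F3 works there with the coactivators POU2AF2 and POU2AF3. The mSWI/SNF complexes slide and eject nucleosomes and keep enhancers and promoters open to such factors.

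The elements that the results turn on are shown first, as read from hg38 on the plus strand, which is the build of the deposited regions. Capitals mark the octamer core TTTGCAT on either strand. They are among the strongest kept, lost and gained regions over 1 kb from a start site that hold a core and no palindromic POU element, named by the nearest protein-coding gene.
MYEOV (kept), chr11:69335113-69335179: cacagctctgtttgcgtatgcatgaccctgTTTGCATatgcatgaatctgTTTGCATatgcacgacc
FLRT1 (kept), chr11:64060873-64060939: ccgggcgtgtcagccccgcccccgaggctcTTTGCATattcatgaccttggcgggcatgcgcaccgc
DOP1B (kept), chr21:36247813-36247879: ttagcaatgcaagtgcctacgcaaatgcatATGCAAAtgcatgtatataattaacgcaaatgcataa
ZNF532 (lost), chr18:59047950-59048016: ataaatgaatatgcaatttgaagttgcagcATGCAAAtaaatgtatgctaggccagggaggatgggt
C1QL2 (lost), chr2:119148242-119148308: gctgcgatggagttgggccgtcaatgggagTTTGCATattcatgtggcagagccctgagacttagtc
CDH8 (lost), chr16:61040451-61040517: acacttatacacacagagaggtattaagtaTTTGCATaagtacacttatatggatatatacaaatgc
GBE1 (gained), chr3:82817069-82817135: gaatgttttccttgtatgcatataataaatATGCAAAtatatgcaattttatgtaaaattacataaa
DNAI7 (gained), chr12:25130755-25130821: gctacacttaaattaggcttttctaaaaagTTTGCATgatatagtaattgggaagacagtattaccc

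In a second set, the capitals mark the palindromic POU element (ATG, any base, ATAT, any base, CAT) in strong regions over 1 kb from a start site without an octamer core.
KDM2B (kept), chr12:121467391-121467462: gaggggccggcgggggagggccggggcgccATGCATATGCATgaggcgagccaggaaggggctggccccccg
STK32B (kept), chr4:5447920-5447991: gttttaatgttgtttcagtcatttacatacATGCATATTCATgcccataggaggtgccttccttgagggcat
ABHD5 (lost), chr3:43816526-43816597: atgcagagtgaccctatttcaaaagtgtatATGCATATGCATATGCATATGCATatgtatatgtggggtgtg
SARDH (lost), chr9:133691735-133691806: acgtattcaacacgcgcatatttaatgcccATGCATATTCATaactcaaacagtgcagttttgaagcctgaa

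Fold enrichment below is the deposited value, the summit pileup over the local background. Level is the summit pileup divided by the background pileup of the same library, 2.15 reads with DMSO and 2.32 with AU-15330, so that levels can be set side by side between the 2 libraries. No input control is named in the sources used here, and the local background then comes from the ChIP library itself. The background pileups correspond to about 29.0 M tags (DMSO) and 33.6 M tags (AU-15330), so the AU-15330 library was not the shallower.

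With AU-15330, 8276 DMSO regions were kept and 48587 were lost. The kept share was 14.6% (14.3 to 14.8%), which is the background for every kept share below. Had each summit kept its level, 93.4% of the DMSO regions would on average have passed the AU-15330 threshold at the AU-15330 depth. This takes the observed DMSO pileup as the true mean. The DMSO regions were selected for passing a threshold, so the expected share is likely too high. A difference in precipitation efficiency between the libraries was not modelled. The covered sequence went from 19.8 Mb to 4.11 Mb. Of the AU-15330 regions, 6041 were gained, or 41.9%.

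Kept regions were stronger and wider in DMSO than lost regions. Their median fold was 5.81, against 4.48 for lost regions, and their median level was 12.6, against 7.45. The median width was 459 bases for kept regions (quartiles 343 and 613) and 286 bases for lost regions (quartiles 226 and 375). Across 5 classes of equal number by width, the kept share went from 3.11% in the narrowest class (200 to 222 bases) to 38.1% in the widest (446 to 3072 bases). A wider region offers more bases for an overlap, and the part of width in this share was tested only through the summit distance and the 50% overlap given among the alternatives.

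Position separated kept from lost regions. Of the kept regions, 3714 (44.9%) had their summit within 1 kb of a protein-coding start site, against 7592 (15.6%) of the lost regions. The kept share was 32.8% (32.0 to 33.7%) of 11306 promoter regions and 10.0% (9.74 to 10.3%) of 45557 distal regions. Introns and intergenic sequence, which held most DMSO regions, kept 9.57% of 19670 and 10.3% of 24790. Coding exons kept 8.18% of 269 regions and 3′ UTRs 10.9% of 659, with intervals of 5.20 to 12.1% and 8.65 to 13.6%.

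Beyond 1 kb the distance mattered little. The kept share was 10.99% at 1 to 10 kb, 10.3% at 10 to 50 kb, 10.6% at 50 to 100 kb and 8.84% over 100 kb from a start site. The median distance was 3.90 kb for kept, 28.3 kb for lost and 25.8 kb for gained regions.

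**Figure D1:**
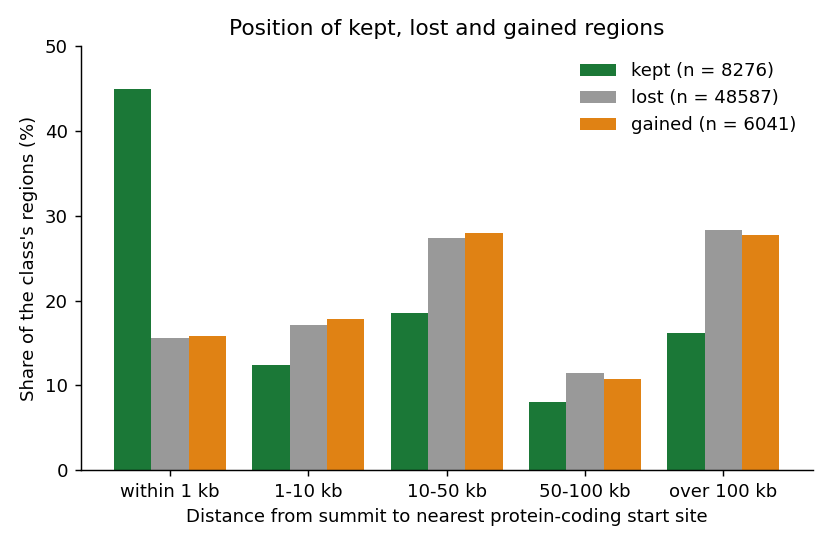
Share of the 8276 kept, 48587 lost and 6041 gained regions (vertical axis, %) in each class of distance from the summit to the nearest protein-coding start site (horizontal axis). Kept regions stand apart within 1 kb, at 44.9%, while lost and gained regions have 15.6% and 15.8% there.

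In the HA pair the difference between promoter and distal regions was present at every strength. The POU2F3 antibody libraries of the line, given below, did not show it over the regions shared with the HA list. In the class with the lowest DMSO folds (up to 3.80), 18.02% of promoter regions and 3.34% of distal regions were kept. In the class with the highest (from 6.35 to 31.7), 60.6% of promoter regions (58.1 to 63.1%) and 25.8% of distal regions (24.9 to 26.7%) were kept. In this class a mean of 99.99% would have been called at an unchanged level, and 7291 of the 9827 distal regions were lost. Promoter regions were also wider than distal ones in every class. Their median widths were 296 against 251 bases in the lowest class and 478 against 389 bases in the highest. The part of width within the classes was not tested.

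**Figure D2:**
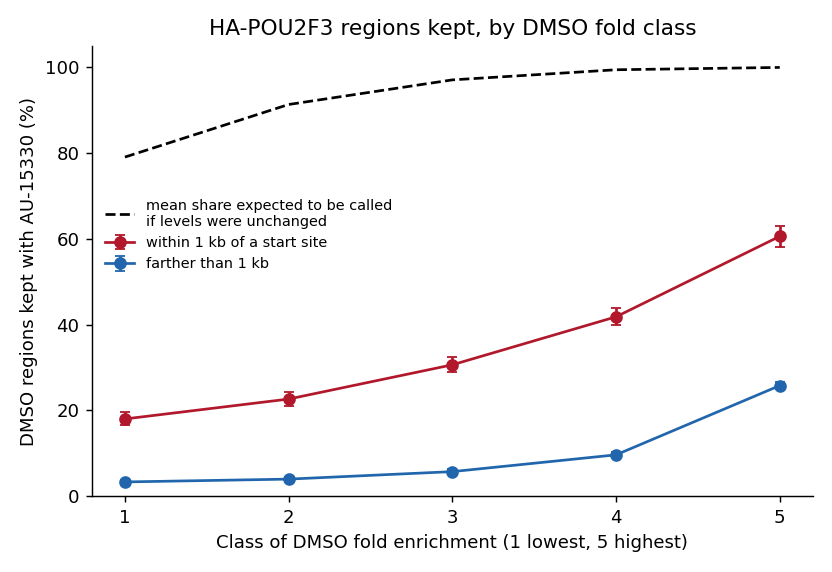
Share of DMSO regions kept with AU-15330 (vertical axis, %) in 5 classes of equal number by DMSO fold (horizontal axis), for regions within 1 kb of a start site (red) and farther away (blue). Bars are exact 95% binomial intervals, and the red points lie above the blue ones in all 5 classes, 60.6% against 25.8% in the highest. The dashed line is the mean share expected at unchanged observed DMSO levels, which is likely too high because these regions were selected by a threshold.

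Base composition moved with position. The median GC content within 100 bases of the summit was 50.7% for kept and 40.3% for lost regions. Promoter regions with at least 60% GC kept 36.4% of 7629, and promoter regions under 40% GC kept 14.4% of 810. Distal regions showed the same order, with 22.4% of 1793 kept at 60% GC or more and 9.55% of 25432 under 40% GC. Chromosome 19 had the highest kept share, 25.1% of 1268 regions, and chromosome 10 the lowest, 10.2% of 1480. The part of GC in these shares, apart from position, was not tested further.

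Where binding was kept, it was mostly lower. The median level at kept regions was 12.6 with DMSO and 8.18 with AU-15330. The median ratio of AU-15330 to DMSO level was 0.64 (quartiles 0.46 and 0.85), and the ratio was below 1 at 7221 regions (87.3%). A kept region has to pass the AU-15330 threshold, so ratios at weak regions cannot be low. The fold classes are cut on the DMSO fold, which moves with the denominator of the ratio. Sorting by it can by itself lower the ratios in the high classes. In the lowest fold class the median ratio was 0.995, and in the highest, where the threshold matters least, it was 0.45. There it was 0.53 at promoter regions and 0.41 at distal regions. The regions were also narrower: 83.6% had a shorter AU-15330 region, with a median width ratio of 0.66, and the summits lay a median of 65 bases apart.

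The octamer core gave opposite orders in the pooled and the separated regions. Over all regions, 13.1% of the 20231 with a core within 100 bases of the summit were kept, against 15.4% of the 36632 without one. Few promoter regions held a core, however: 1103 of 11306. Among distal regions 12.0% of those with a core (11.5 to 12.4%) and 8.61% of those without (8.27 to 8.95%) were kept. Among promoter regions the shares were 32.1% with a core (29.3 to 34.9%) and 32.9% without.

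Within fold classes of the HA pair the octamer went with no higher kept share beyond counting error. The POU2F3 antibody pair, given below without fold classes, had higher shares with a core. Distal regions of the highest fold class kept 25.9% of 6007 with a core and 25.7% of 3820 without. In the class below, distal regions with a core kept 7.998% and those without 11.4%, with intervals that did not meet. Promoter regions with a core kept a lower share than those without in all 5 classes, 54.0% against 62.9% in the highest and 29.1% against 43.3% in the class below. Pooled over the fold classes, the median level ratio of kept regions was 0.48 at distal regions with a core, 0.65 at distal regions without, 0.55 at promoter regions with a core and 0.75 at promoter regions without. The distal regions with a core were stronger, with a median fold of 5.25 against 4.36 for those without, and stronger regions had lower ratios. Within the highest fold class the distal ratios were 0.40 with a core and 0.45 without, in the class below 0.62 and 0.67, and in the middle class 0.78 in both.

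**Figure D3:**
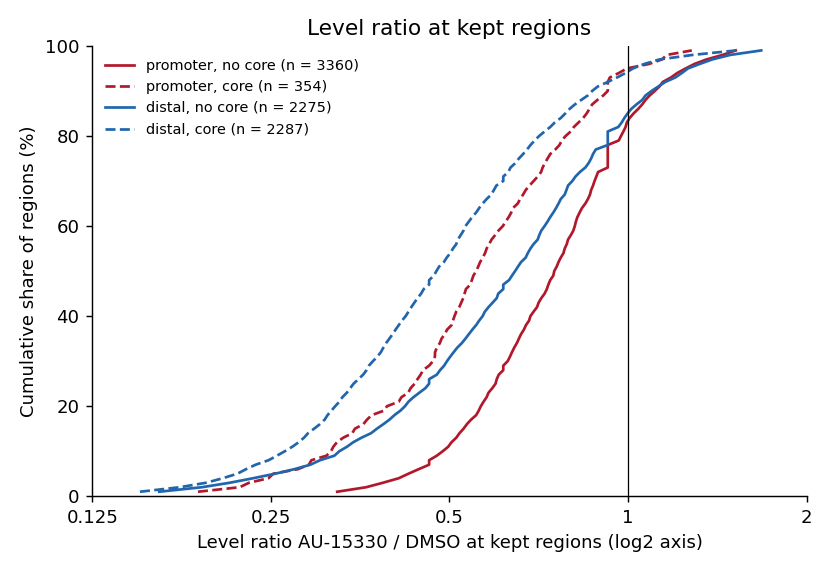
Cumulative share of kept regions of all fold classes (vertical axis, %) by the ratio of AU-15330 to DMSO level (horizontal log2 axis), for promoter (red) and distal (blue) regions with (dashed) and without (solid) an octamer core. The distal regions with a core lie farthest left, with a median of 0.48, and the promoter regions without a core farthest right, with a median of 0.75; the vertical line marks equal levels.

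The examples printed above show the range. The strongest of the kept ones, in an intron 39.6 kb from the start of MYEOV, held 2 cores and went from a level of 127 to 18.1. The region 24.97 kb from FLRT1 went from 73.1 to 29.3, and that 1.54 kb from DOP1B, with 5 cores, from 96.8 to 21.5. The 3 lost ones, near ZNF532, C1QL2 and CDH8, had DMSO levels of 73.6, 63.3 and 38.2 and no HA-POU2F3 region with AU-15330. Those near ZNF532 and C1QL2 overlapped a POU2F3 antibody region with AU-15330, and that near CDH8 did not. The gained ones near GBE1 and DNAI7 had levels of 8.61 and 9.90. The lost ones held cores like those of the kept ones, at DMSO levels that reached that of the FLRT1 region.

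Motifs of promoter factors were more frequent in kept than in lost regions. The Sp/KLF pattern GGGCGGG lay within 100 bases of the summit in 19.1% of kept, 6.17% of lost and 6.46% of gained regions, against 1.498%, 1.17% and 1.39% in windows 2 kb away. The excess over lost regions held within promoters, at 37.1% against 30.3%, and within distal regions, at 4.36% against 1.71%. At promoters the NRF1 pattern GCGCATGC was in 5.52% of kept and 2.00% of lost regions, the ETS pattern CCGGAAGT in 4.63% and 3.11%, the YY1 pattern AAGATGGC in 4.2% and 2.40%, and the CRE pattern TGACGTCA in 1.97% and 1.22%. Of 21571 RefSeq promoter sequences of protein-coding genes, 42.8% held GGGCGGG and 3.84% the octamer core. The NRF1, ETS, YY1 and CRE patterns were in 3.73%, 5.42%, 3.58% and 2.29% of them. These sequences were 300 bases long, more than the 100 bases to either side of a summit. Their shares are thus not on the same scale as those of the regions.

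Among distal regions the order differed by factor. The octamer core was in 50.1% of kept and 41.1% of lost distal regions, against 5.08% and 5.46% in the flanks. The RUNX pattern AACCACA went the other way, with 6.82% of kept and 9.46% of lost distal regions, against 3.67% and 3.66% in the flanks. The CTCF pattern was in 2.98% of kept and 1.76% of lost distal regions. The AP-1 pattern TGANTCA was in 6.38% of kept and 6.75% of lost distal regions, against 6.28% and 6.45% in the flanks. A match is a run of letters and not a measured site.

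**Figure D4:**
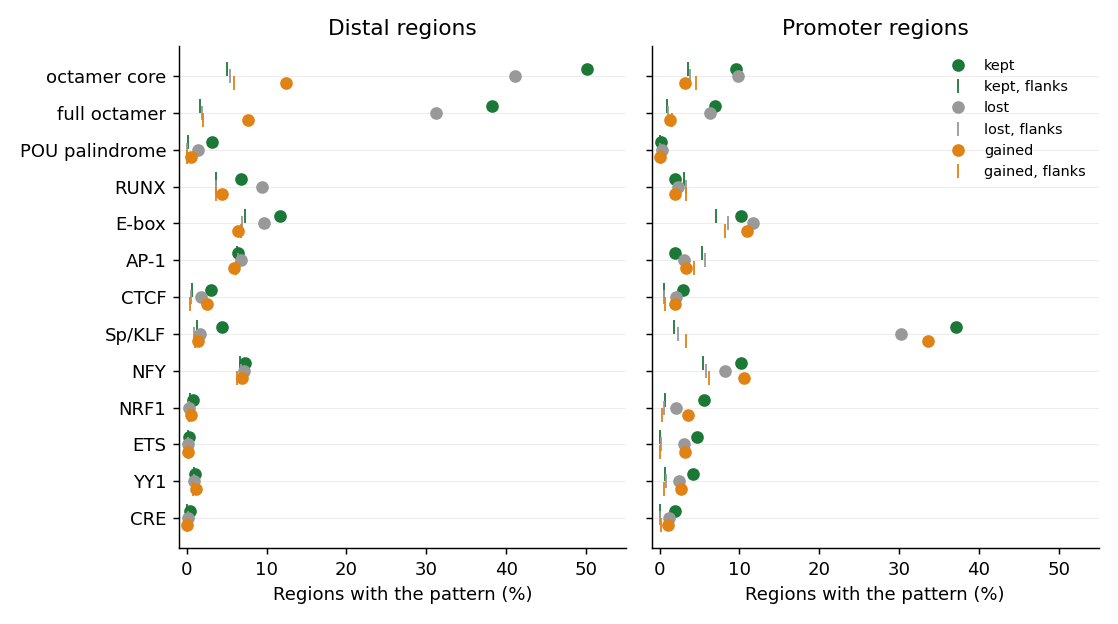
Share of kept (green), lost (grey) and gained (orange) regions that hold each pattern within 100 bases of the summit (points, %) and in windows 2 kb away (ticks), for distal regions on the left and promoter regions on the right. Kept and lost distal regions hold the octamer core in 50.1% and 41.1%, gained distal regions in 12.5%.

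The palindromic element marked strong regions of another kind. It was looked for after inspection of the strongest regions that lacked an octamer core, so its frequency among HA-POU2F3 regions is a description. The element, which reads the same on both strands apart from its open bases, lay within 100 bases of 738 DMSO summits (1.30%), against 0.080% of flanking windows. It was in 63 of the 300 regions with the highest DMSO folds (21%), in 8.86% of the next 700 and in 0.80% of those ranked beyond 10000. In the POU2F3 antibody list of the line it was in 0.67% of 89850 regions, against 0.086% in the flanks. In the HA-POU2F3 DMSO list of the line NCI-H1048 it was in 0.29% of 20151 regions, against 0.089% in the flanks. In the list of the coactivator HA-POU2AF2 it was in 42 of 34280 regions (0.12%), against 0.088% in the flanks, while the octamer core was in 46.1% of them.

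Regions with the palindrome were seldom listed for HA-POU2AF2. Of the 621 with the palindrome and no core, 35 overlapped a HA-POU2AF2 DMSO region (5.64%, interval 3.96 to 7.75%), against 47.0% of the 20114 with a core and no palindrome and 25.1% of the 36011 with neither. Among distal regions of the highest fold class the shares were 8.64% of 301 (5.72 to 12.4%), 69.6% of 5944 (68.4 to 70.8%) and 33.7% of 3519. The POU2F3 antibody overlapped 70.4%, 96.0% and 78.9% of the same regions. The palindrome regions thus lay below those with neither element by a smaller margin for the antibody than for the coactivator. HA-POU2F3 DMSO regions of the line NCI-H1048 overlapped 9.30%, 48.2% and 20.3% of them. A low share at the palindrome was therefore not particular to the coactivator list. Of POU2F3 antibody regions that no HA-POU2F3 region overlapped, which played no part in finding the element, HA-POU2AF2 regions overlapped 6 of 150 with the palindrome (4.00%, interval 1.48 to 8.50%), 20.3% of 24290 with a core and 10.7% of 28873 with neither.

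**Figure D5:**
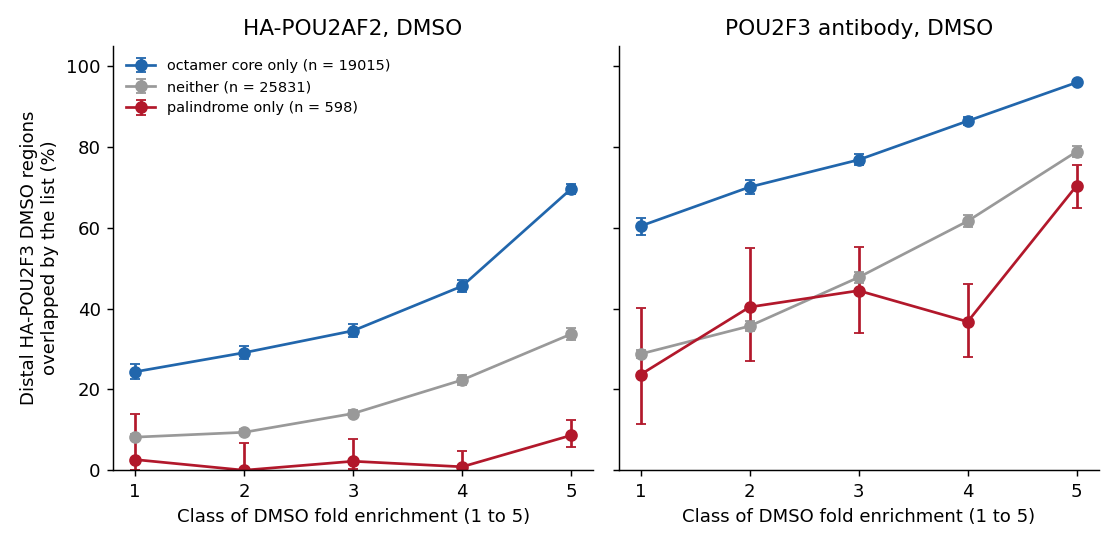
Share of distal HA-POU2F3 DMSO regions (vertical axis, %) overlapped by the HA-POU2AF2 DMSO list (left) and the POU2F3 antibody DMSO list (right) in 5 classes of DMSO fold, for regions with an octamer core only, the palindrome only or neither. Bars are exact 95% binomial intervals; in the highest class the left shares are 69.6%, 8.64% and 33.7%.

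As background, a pair of POU proteins can occupy such palindromes as a dimer, and for the related POU2F1 and its coactivator POU2AF1 this arrangement has been described as one in which the coactivator does not join. Whether the same holds for POU2F3 and POU2AF2 was not tested. Sites in which the core TTTGCAT ran on into AT, any base and CAT, the other arm of the palindrome, lay between: among distal regions of the highest class, 46.1% of 178 (38.6 to 53.7%) overlapped HA-POU2AF2, against 70.4% of 5766 with other cores. The printed octamer sequences of MYEOV, FLRT1, DOP1B and C1QL2 are of this form.

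In the highest fold class, 28.2% of the 301 distal regions with the palindrome only (23.2 to 33.7%) and 25.8% of the 5944 with the core only (24.6 to 26.9%) were kept with AU-15330. The palindrome regions of this class were stronger, with a median fold of 10 against 7.98. In the other 4 classes together the shares were 9.09% of 297 (6.08 to 12.95%) and 5.54% of 13071 (5.15 to 5.94%), with intervals that did not meet. The POU2F3 antibody list with AU-15330 had the opposite order. It overlapped 15.9% and 52.8% in the highest class and 3.03% and 20.0% in the other 4. Among all regions shared with the antibody DMSO list, promoters included, it overlapped 18.3% of 344 and 37.1% of 16645. The HA pair kept 29.1% and 15.2% of these. The median level ratio of the HA pair in the highest class was 0.27 for the palindrome and 0.40 for the core. Of the printed examples, KDM2B went from a level of 135 to 69.7 and STK32B from 84.7 to 12.9, while ABHD5 (40.5) and SARDH (36.8) had no AU-15330 region. The KDM2B region, in an exon with 81.1% GC around the summit, was the only one of these 4 with a HA-POU2AF2 region.

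The strongest kept regions differed widely in what remained. The highest DMSO fold, 31.7, was on chromosome 13 (chr13:18211867-18212261), 970 kb from TUBA3C, where the level was 117 with DMSO and 112 with AU-15330. It had neither element, and it was also listed for HA-POU2AF2 with AU-15330 and for HA-POU2F3 in the line NCI-H1048 with AU-15330. BLCAP kept 71.9 of 118 in its promoter, and KDM2B is given above. DPP6, which encodes a potassium channel subunit, went from 97.8 to 13.8 at an intronic region with neither element. Among the 8 strongest lost regions, 1 lay 266 kb upstream of SMARCA2, with a level of 60.5 and both elements. EML1 and PPP2R2C, a phosphatase subunit gene, lost intronic regions with levels of 48.0 and 63.8. The lost regions of PPP2R2C and upstream of SMARCA2 overlapped a POU2F3 antibody region with AU-15330, and that of EML1 did not.

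Gained regions were weak and carried little of the factor's sequence. Their median fold was 3.91 and their median level 6.02, against 4.45 and 8.18 for AU-15330 regions shared with DMSO. Of them, 14.02% reached a −log10 q-value of 5, against 51.8% of the shared ones. The octamer core was in 12.5% of gained distal regions against 5.95% in their flanks. A POU2F3 antibody DMSO region overlapped 22.9% of gained and 91.5% of shared regions, and a POU2F3 antibody AU-15330 region 4.15% and 48.0%.

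The strongest gained region lay in an intron of IQCA1, at a level of 31.0 and 9.95% GC around its summit. It overlapped DMSO regions of the POU2F3 antibody in this line and of HA-POU2F3 in NCI-H1048, so it was gained in the HA pair only. Its 101 bases about the summit, on the plus strand of hg38, show a run of A and T.
IQCA1 (gained), chr2:236357578-236357678: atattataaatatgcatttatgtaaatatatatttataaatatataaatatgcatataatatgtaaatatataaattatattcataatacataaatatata

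The other 7 of the 8 gained regions with the highest folds had levels of 9.90 to 14.6. RPL26, a ribosomal protein gene, gained a promoter region at 10.3, and regions near NPEPPS, OLFM3, SNTB1, FOXB1 and IGF2BP3, an mRNA-binding protein gene, reached 14.2, 14.6, 12.5, 12.5 and 10.3. The FOXB1 region held 1 core and 1 palindrome, and OLFM3 1 palindrome. The gained regions of RPL26, NPEPPS, SNTB1, FOXB1 and IGF2BP3 overlapped a POU2F3 antibody DMSO region of the line, and that of OLFM3 did not.

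Libraries not used to define the classes separated kept from lost regions. The POU2F3 antibody DMSO list overlapped 92.1% of kept and 59.97% of lost regions, and HA-POU2AF2 with DMSO 64.8% and 27.1%. With AU-15330 the POU2F3 antibody list overlapped 49.5% of kept and 15.6% of lost regions. In NCI-H1048, another line of this subtype, HA-POU2F3 regions with DMSO overlapped 37.9% of kept and 13.5% of lost regions, and those with AU-15330 14.3% and 1.48%. Kept regions were stronger, so that strength moves with each of these shares. HA-POU2AF2 with AU-15330 overlapped 327 kept regions (3.95%) and 113 lost ones (0.23%).

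The antibody and the tag did not rank the site types alike. Of 36757 DMSO regions that both the HA and the POU2F3 antibody lists held, 7621 (20.7%) were kept in the HA pair, 11530 (31.4%) had an antibody region with AU-15330, and 4067 (11.1%) had both. The HA pair kept 39.7% of promoter and 14.8% of distal regions, while the antibody kept 29.7% and 31.9%, with no promoter excess. At promoter regions without a core, the HA pair kept 40.2% and the antibody 27.8%. At those with a core the order was opposite, 35.4% and 44.6%. At distal regions with a core the shares were 14.02% and 36.6%, and without one 15.9% and 25.9%. For the antibody, regions with a core thus had the higher share at promoters and distally, without a split by fold class. Cells, antibody, depth and treatment time may differ between the pairs, and their parts cannot be told apart.

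At the genes of the factor and its partners the fates differed. A gene's window was its body and 10 kb upstream; 70.5% of 19962 protein-coding genes had a DMSO region in it, 41.5% of these kept at least 1, and 16.1% of all had a gained one. POU2F3 itself, on chromosome 11, kept 5 of 7 regions, and the levels of the 2 at its start sites went from 61.5 to 21.9 and from 66.1 to 23.7. POU2AF2 kept its promoter region, with 2 cores, at 19.4 of 41.4, and an intronic one at 13.3 of 20.5, and lost 3 regions with levels of 8.85 to 9.78. POU2AF3, next to it, lost all 3, of which the highest had a level of 34.9. That highest one overlapped AU-15330 regions of the POU2F3 antibody and of HA-POU2F3 in NCI-H1048.

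POU2F1, the ubiquitous relative, kept 5 of 14 regions, and 3 of these, at its start sites, had levels of 81.5, 81.5 and 66.1 with DMSO and of 24.5, 23.7 and 23.7 with AU-15330. POU2F2, the B cell relative, kept 1 of 5, a promoter region with 2 cores that went from 32.1 to 6.88. POU2AF1, the B cell coactivator, lost all 9. SMARCA4 kept the 1 region it had, at its promoter (8.85 and 5.59), and SMARCA2 lost all 5, of levels 5.59 to 13.97, and gained an intronic one at 5.16.

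Of 54 tuft cell genes, the 3 of the POU2F3 complex among them, 50 had a DMSO region and 22 kept at least 1, that is 44% of the bound ones against 41.5% of all bound protein-coding genes. They kept 40 of 204 regions (19.6%, interval 14.4 to 25.7%) against 19.0% for the windows of all genes together. Both are close to the background in these windows, and the shares in wider and narrower windows are given among the alternatives. By role, 4 of 9 lineage factors, 2 of 7 eicosanoid synthesis genes, 8 of 16 chemosensory signalling genes and 6 of 16 markers and effectors kept a region.

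Of the chemosensory genes, SUCNR1, the receptor for succinate, kept both of its regions, at 28.4 of 59.6 at the promoter. HTR3E, a serotonin receptor subunit, kept its promoter region at 9.47 of 25.6, and RGS21, a regulator of G protein signalling, 1 of 3 at 8.61 of 26.1. GNAT3, the taste G protein gustducin, kept 2 of 5, of which 1 went from 29.3 to 13.3 and the other, 1.38 kb from a start site, from 15.4 to 18.1. IRAG2 kept 4 of 9, of which 3 had AU-15330 levels above those with DMSO, the highest at 38.3 and 36.3. The window of the taste receptor gene TAS1R1 kept a region at 9.04 of 13.97, which lay at the start site of NOL9. PLCG2, a phospholipase, kept 1 of 6 at 5.59 of 11.6, and the calcium channel gene ITPR2 2 of 17.

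The cation channel gene TRPM5 lost all 4 regions, and RGS13 all 4. GNB3 lost its region and gained another at 7.31. Their DMSO levels were 6.52 to 13.04 at TRPM5 and 7.92 to 12.1 at RGS13, under the 20.5 and 59.6 of SUCNR1.

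Of the lineage factors, RUNX1 had 42 regions in a window of over a megabase and kept 4, of which the strongest, with a fold of 16.0, went from 41.4 to 10.3; it also gained 3 of levels 4.73 to 6.45. The window of GFI1B kept 2 of 5, at 7.31 of 10.7 at the start site of TSC1 and at 6.02 of 13.97 in an intron. SOX9 and ETV1 kept the 1 region each had, at 7.31 of 13.04 and 4.73 of 7.92. Of eicosanoid genes, TBXAS1, thromboxane synthase, kept 2 of 9, of which 1 went from 34.9 to 7.31 and the other from 9.31 to 12.0, and gained 2. ALOX5 kept 1 of 2 at 7.31 of 14.9. PLA2G4A, which releases arachidonic acid, lost all 7, the highest at 36.3, and gained a promoter region at 10.8.

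Of the markers and effectors, the window of PTPN6 kept 2 of 4, at the start sites of its neighbours ATN1 and C12orf57, the higher, at C12orf57, at 22.8 of 40.04; its gained region began 1 base after that region's end. SH2D7 kept 1 of 3 at 12.0 of 25.1, ESPN 1 of 4 at 13.8 of 30.7, ANXA1 1 of 3 at 9.47 of 19.1 and BMX 1 of 5 at 11.2 of 12.1. KIT, the stem cell factor receptor, kept 2 of 3, at 7.31 of 11.6 and at 10.8 against 6.05 with DMSO. DCLK1 lost all 7 and gained 2, of 7.75 and 7.32, and SH2D6 lost all 4 and gained 1 at 6.02, at the start site of CAPG.

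Other lists lay on both sides of the background. Of 70 cytosolic ribosomal protein genes with a DMSO region, 48 kept one (68.6%), and of 14 H2B histone genes 13 did, with 54 of 107 and 26 of 40 regions kept. The highest folds were 10.6 at RPS3A, which kept its 1 region, and 12.2 at H2BC4, which kept 2 of 3. Of 16 housekeeping genes 11 kept one, the highest folds being 17.7 at POLR2A, 11.8 at GUSB and 10.8 at EEF1A1, each of which kept 1 region. Of 26 mSWI/SNF subunit genes 9 did, of which BICRA (fold 11.1) kept 2 of 3 regions, ARID1B (9.58) lost all 20 and SMARCD2 (9.56) lost its 1. Of 16 neuroendocrine genes 10 did, among them NEUROD2 (fold 12.4), DLL3 (12.2) and SEZ6 (11.1), with 1 of 2 regions each, and NCAM1 with 9 of 22. The hepatocyte list, used for comparison, kept 1 of 7 genes and the T cell list 0 of 8, with 0 of 11 regions, which allows a share of up to 28.5%. H2B and ribosomal protein genes lie in families whose copies can share reads, and most of their regions are at promoters.

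The genes with the most regions were very long ones, among them synaptic genes such as DLG2 and PTPRD. DLG2 (2173 kb) kept 11 of 79, PTPRD (2299 kb) 8 of 69, MACROD2 3 of 59, LRP1B 5 of 57 and GPC6 5 of 54. The most gained regions were in LRP1B (10), GPC5 and PTPRD (7 each), EYS and FAF1 (6 each). NRXN3, a synaptic adhesion gene, lost all 41 of its regions, NEGR1 and DLGAP1 all 26 each, and FRY and GMDS all 22 each. By nearest gene, 8118 of 13710 genes (59.2%) kept none of their regions, and 3548 of 9160 genes with a promoter region kept one.

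A stretch of chromosome 2 stood apart in local background. There, 121 DMSO regions between 15102066 and 16790702 had a local background at least 10 times that of the library (median 25.1, highest 98.7), and 48 of them (39.7%) were kept with a median level ratio of 0.66. The number of DNA copies there was not measured. Regions with a local background of at least 5 times made up 0.53% of the DMSO and 0.71% of the AU-15330 list, and without them the kept share was 14.3%.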

How the data were processed

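Per the labels and the study's methods, the authors trimmed paired-end reads with Trimmomatic 0.39, aligned them to hg38 with BWA, removed duplicates with SAMtools and Picard and called regions with MACS2, calling summits, at a q-value of 0.05. The deposited region files hold the fold enrichment (ratio) at the summit, the −log10 p-value and −log10 q-value and an integer score derived from the q-value. Each library's regions were called separately.

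Here the whole-number summit pileup was recovered from the deposited fold and −log10 p-value (tolerance 0.002; 100% of regions). A level is this pileup over the library's background pileup, and the tag numbers assume a genome of 2.7 Gb. Start sites, features and genes came from GENCODE 44 (19962 protein-coding genes), whose chromosome names matched the files. Patterns were searched on both strands within 100 bases of the summit and in windows 2 kb to either side that held no region. Repeat masking was not analysed here, since the reference carries none. The shares carry exact 95% binomial intervals. The members, gene lists and comparisons were chosen with earlier results of these data known. Genes were named by rule: factor and partner genes, tuft cell genes that kept or gained a region or had the highest folds, the nearest genes of the strongest regions, the genes with most regions, and some list members chosen after their values were seen. Steps were tested on simulated data. Python 3.11.15 with the packages pandas, numpy, scipy and pysam were used. Regions on other sequences were left out: 184 with DMSO and 189 with AU-15330. A few genes and sequences that these rules select are not reported here.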

Additional observations from a re-analysis of the deposited data

Results flagged for a closer look

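Of the AU-15330 list, 189 regions (1.29%) lay on sequences other than chromosomes 1 to 22 and X, against 184 (0.32%) of the DMSO list. They stand out because they are signal outside the comparisons above, with a larger share of the list than in the DMSO control. With them included the kept share was 14.7% and the gained share 41.9%. There was no replicate to compare them with.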

How the results depend on the processing

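Each share was computed again under other settings, in the order DMSO regions kept, promoter regions kept, distal regions kept, octamer core regions kept and AU-15330 regions gained. With an overlap of at least 50% they were 9.23%, 19.1%, 6.78%, 8.88% and 46.9%. With summits within 200 bases they were 12.4%, 26.1%, 9.05%, 12.1% and 50.9%. With a −log10 q-value of at least 5 in the DMSO list they were 20.6%, 42.3%, 14.9%, 16.5% and 49.6%, in the AU-15330 list 7.56%, 15.9%, 5.49%, 7.71% and 16.4%, and in both lists 11.4%, 22.2%, 8.57%, 9.98% and 22.8%. With the 14408 strongest DMSO regions they were 28.4%, 56.3%, 23.4%, 25.1% and 71.2%. Promoter regions were kept at 2.40 to 3.32 times the distal share in all 11 settings that gave both. All of these settings used the HA pair, and the antibody pair above showed no such excess.

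With 2 kb around start sites 30.3% of promoter regions were kept, and with the start sites of all genes 30.9% of promoter and 9.46% of distal regions. A window of 50 bases gave 14.1% for octamer core regions. The median level ratio was 0.77 as a ratio of deposited folds, 0.63 with summits within 200 bases and 0.63 with a −log10 q-value of at least 5 in both lists. With 50 kb to either side of the gene, 40 of 54 tuft cell genes with a DMSO region kept one, against 55.7% of all such protein-coding genes, and within 2 kb of the start site 9 of 35 did, against 39.7%. The HA-POU2AF2 overlap of palindrome regions was 3.70% for the form with C and G and 10.2% among regions shared with the POU2F3 antibody. The settings for the palindrome and for local background were chosen after seeing the data. Scaling the DMSO pileup to the AU-15330 threshold, adding all sequences, the full octamer and leaving out high local background moved the shares by less than their counting intervals. The cause of each move was not tested, and promoter, distal and octamer shares were not run over all sequences.

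Each condition had 1 library, so leaving out a replicate could not be done. No paired analysis was possible because the groups hold 1 sample each. The AU-15330 threshold required a pileup of at least 9 reads, 3.87 times the background, so binding under this level counts as lost. Treatment time, depth and cell number of the 2 libraries cannot be told apart from the treatment.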
